A study of Homo sapiens with 18 samples.

Results

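Cells that received decitabine together with valproic acid were set against what each agent did alone, gene by gene, to find genes whose change with both agents departed from the sum of the single changes. The contrast used 12 of 18 arrays, 3 in each of 4 groups of U937, a human line of monocyte-like cells established from a histiocytic lymphoma. The groups were U937 cells given decitabine (5-aza-2'-deoxycytidine) plus valproic acid, decitabine alone, valproic acid alone, and untreated control cells. The remaining arrays were of U937 cells given panobinostat for 24 h, alone or with decitabine. They are outside the contrast but enter the fit and some comparisons below. Per the labels, decitabine was given as 3 pulses of 24 h and valproic acid for 24 h with the last pulse. The numbers 50 and 1 that the labels attach to these agents have no unit. Separate cultures for the arrays of a group are not stated, so the p-values below reflect only how arrays within groups spread, which may be technical in part. That spread was estimated from all 18 arrays, not from the 12 of the contrast alone. Each of the 14884 genes on a probe set with 1 symbol gave an estimate, the mean log2 signal with both agents minus those with decitabine and with valproic acid plus that of the controls. A positive estimate means a higher signal with both agents than the sum of the log2 changes would give, and a negative one a lower signal. Genes with an adjusted p under 0.05 in limma (Benjamini-Hochberg over all genes tested) are said to be called, and n = 3 in every group.

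Decitabine is a cytosine analogue that is built into replicating DNA, where it traps DNA methyltransferases, so that cytosine methylation at CpG sites is lost as cells divide. Valproic acid is a short branched fatty acid that inhibits histone deacetylases, so that acetylated histones accumulate at promoters and enhancers. Methylated promoters recruit deacetylase complexes, and the agents are combined in studies of myeloid malignancies because both oppose silencing of genes, at different steps.

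The signals ran from 2.29 to 14.57 on the log2 scale, with array medians between 3.81 and 3.87, and the number of arrays limits the precision. Of 10 myeloid markers, 5 were measured, and all had control means above 6, led by MPO, myeloperoxidase, at 12.28. Of 17 markers of lymphoid, epithelial, erythroid, platelet, stromal and endothelial cells, 6 were measured, with group means between 3.17 and 5.72, and the others were not analysed here. Replicate 1 of the combination lay somewhat nearer to the controls than the other arrays of its group. Over the 2524 genes called between the combination and control, along the direction of their mean change, set to 0 at the controls and 1 at the combination, it lay at 0.86, against 1.03 and 1.11 for the others. Weights estimated from all genes gave replicate 1 the lowest value of all arrays, 0.72, though replicate 3 was close at 0.77. Replicate 2 had 1.27. Many of the counts and estimates that this array moves are also given without it, but not all.

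Few departures from additivity could be called. The interaction was called for 9 of 14884 genes (0.0605%), 2 of them positive (0.0134%) and 7 negative (0.047%), and 7 of the 9 were at least 2-fold in size. An unadjusted p under 0.05 was reached by 1149 genes, or 7.72% of those tested. When only the 12 arrays of the contrast were fitted, 3 genes were called, 2 of them among the 9. Since RNA came from bulk cultures, a change in the share of cells that express a gene and a change per cell cannot be told apart. HSPA2 and MTMR11 had more signal with both agents than the single changes summed to. LGR5, GLIPR1, VNN1, SP110, TPM4, LPXN and the pseudogene ANXA2P2 had less. All 7 genes of the second kind had been called higher with each agent alone, and 6 of them were called higher with both. VNN1 was the exception, with a combination level near that of the controls. The plot of signals by array shows the measured levels beside the level that adding the log2 changes would give.

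**Figure D1:**
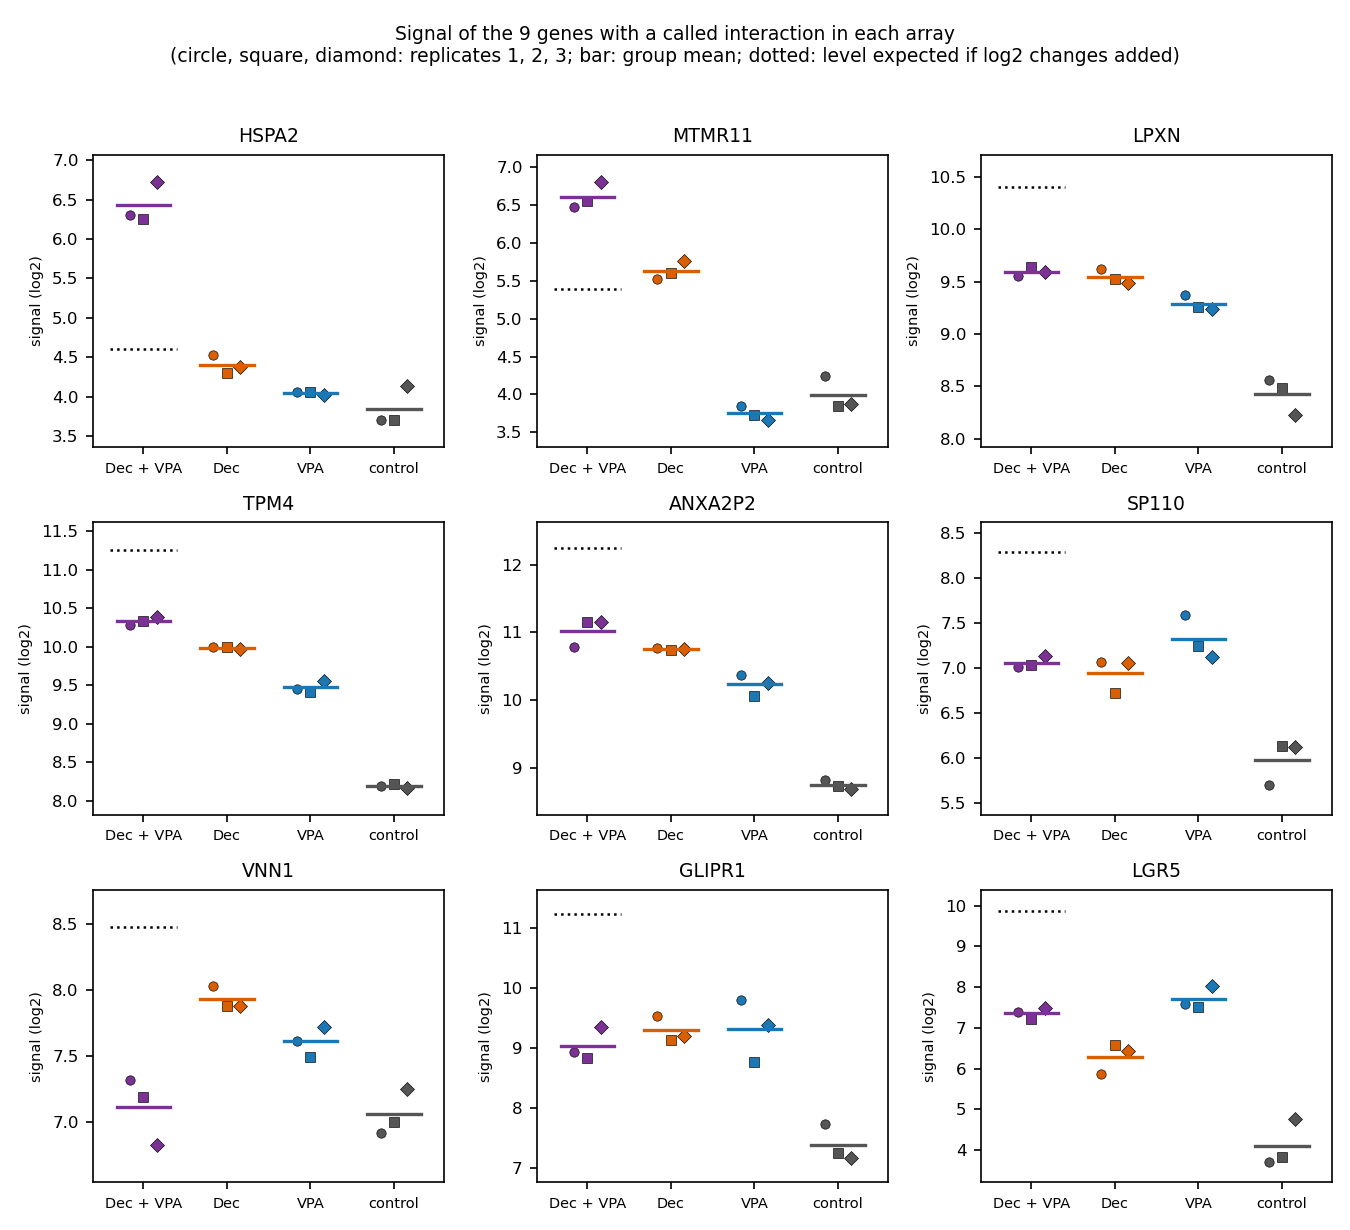
Log2 signal of the 9 called genes in each array (y axis) for decitabine plus valproic acid (Dec + VPA), decitabine (Dec), valproic acid (VPA) and control, with circles, squares and diamonds for replicates 1, 2 and 3, bars for group means and a dotted line for the combination level expected if log2 changes added. HSPA2 and MTMR11 lie above the dotted line with both agents in all 3 arrays, and the other 7 genes below it in all 3.

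The 250 bases before the transcription start that the RefSeq promoter table (GRCh38.p14) gives are shown for the called genes found in it, because decitabine lowers the methylation of cytosines in CpG sites. They run 5' to 3' along the gene, and capitals mark each CpG. For HSPA2 and LPXN the stretch lies inside the annotated span of the gene, which begins further upstream, so other starts of these genes are not shown.
HSPA2, chr14:64540491-64540740, plus strand: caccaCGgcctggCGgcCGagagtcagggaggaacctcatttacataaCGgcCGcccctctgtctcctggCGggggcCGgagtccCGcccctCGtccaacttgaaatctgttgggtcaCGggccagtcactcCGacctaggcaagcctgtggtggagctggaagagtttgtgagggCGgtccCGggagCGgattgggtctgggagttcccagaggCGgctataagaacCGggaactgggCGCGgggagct
MTMR11, chr1:149936880-149937129, minus strand: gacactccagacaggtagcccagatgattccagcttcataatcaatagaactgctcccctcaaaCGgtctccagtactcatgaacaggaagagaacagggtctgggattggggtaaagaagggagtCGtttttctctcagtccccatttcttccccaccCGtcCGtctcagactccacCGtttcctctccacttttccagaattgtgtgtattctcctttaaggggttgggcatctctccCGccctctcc
SP110, chr2:230225637-230225886, minus strand: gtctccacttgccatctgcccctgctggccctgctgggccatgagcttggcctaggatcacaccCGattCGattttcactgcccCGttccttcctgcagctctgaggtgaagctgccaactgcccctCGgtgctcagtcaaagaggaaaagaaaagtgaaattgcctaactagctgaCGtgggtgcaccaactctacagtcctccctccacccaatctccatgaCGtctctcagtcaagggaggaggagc
TPM4, chr19:16067288-16067537, plus strand: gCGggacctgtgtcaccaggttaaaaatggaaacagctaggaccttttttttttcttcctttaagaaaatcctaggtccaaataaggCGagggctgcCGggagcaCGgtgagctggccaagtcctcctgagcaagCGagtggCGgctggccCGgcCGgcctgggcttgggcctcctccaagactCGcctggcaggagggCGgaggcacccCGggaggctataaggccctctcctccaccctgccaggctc
LPXN, chr11:58578134-58578383, minus strand: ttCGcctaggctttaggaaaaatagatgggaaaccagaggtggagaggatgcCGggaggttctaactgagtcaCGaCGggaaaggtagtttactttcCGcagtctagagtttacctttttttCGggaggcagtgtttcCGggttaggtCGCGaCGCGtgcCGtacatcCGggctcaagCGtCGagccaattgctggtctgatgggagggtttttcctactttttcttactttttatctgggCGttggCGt
The table held 5 of the 9 called genes. LGR5, GLIPR1, VNN1 and ANXA2P2 are named only. The motif counted was CG, which reads the same on both strands. HSPA2 had 18 CpG sites in this stretch, LPXN 17, TPM4 11, and MTMR11 and SP110 had 6 each. The median over the 10749 tested genes in the table was 18. Of those genes, 51.1% had at least as many CpG sites as HSPA2 and 79% at least as many as MTMR11 and SP110. The array carries no measure of methylation, so these counts only describe the sequences.

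HSPA2 encodes an HSP70 chaperone best known from testis, where mouse spermatocytes need it to complete meiosis. Its log2 signals were 6.31, 6.25 and 6.72 with decitabine plus valproic acid, 4.53, 4.30 and 4.38 with decitabine, 4.06, 4.06 and 4.02 with valproic acid, and 3.71, 3.71 and 4.13 in control cells. The 3 combination arrays lay above all others, and the valproic acid arrays overlapped the controls. The change against control was 2.58 with both agents (5.97-fold, adjusted p = 8.05e-09), 0.56 with decitabine (adjusted p = 0.0461) and 0.20 with valproic acid, which was not called (adjusted p = 0.537). The interaction was 1.82 (SE 0.21, 95% interval 1.38 to 2.27, adjusted p = 0.00279), so the combination signal was 3.54 times the one expected from added log2 changes. It was 1.88 without replicate 1 of the combination (adjusted p = 0.0024), and was called in all 19 alternative settings tried. The control and valproic acid means, 3.85 and 4.05, lay near 3.84, the median of all values, where signals are compressed. How far this lowered the expected sum was not tested. HSPA1A, the main stress-inducible HSP70, had an interaction of 0.08 (adjusted p = 0.983), and it was called higher with both agents against control, at 1.35 (adjusted p = 0.0037).

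MTMR11 belongs to the myotubularins, phosphoinositide phosphatases, as a member that lacks catalytic residues. Its log2 signals were 6.47, 6.56 and 6.81 with decitabine plus valproic acid, 5.52, 5.61 and 5.76 with decitabine, 3.85, 3.73 and 3.66 with valproic acid, and 4.25, 3.85 and 3.87 in control cells. The combination arrays were the highest, the decitabine arrays came next without overlap, and the valproic acid arrays lay at or just below the lowest control. Decitabine alone raised it by 1.64 (adjusted p = 3.85e-06) and both agents by 2.62, while valproic acid alone differed from control by -0.24 (adjusted p = 0.421). The interaction was 1.22 (SE 0.21, 95% interval 0.77 to 1.68, adjusted p = 0.0496). This call stood at the threshold: it held in 5 of 19 alternative settings, and among those that left out 1 array only without replicate 1 of the combination (1.30, adjusted p = 0.0312). Its estimate stayed between 1.10 and 1.30 in all 19. The control and valproic acid means of MTMR11, 3.99 and 3.75, were also near the median of all values.

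LGR5, a receptor for R-spondins that marks stem cells of the intestinal crypt, had the lowest estimate of all genes tested. Log2 signals of LGR5 were 7.38, 7.22 and 7.48 with decitabine plus valproic acid, 5.87, 6.57 and 6.42 with decitabine, 7.59, 7.51 and 8.02 with valproic acid, and 3.71, 3.82 and 4.76 in control cells. All treated arrays lay above the controls, and the combination arrays lay above those of decitabine and below those of valproic acid. Against control, LGR5 was higher by 3.27 with both agents (9.62-fold), 2.19 with decitabine (4.55-fold) and 3.61 with valproic acid (12.2-fold), each of them called. Single changes summed to 5.79, and the interaction was -2.53 (SE 0.34, 95% interval -3.26 to -1.80, adjusted p = 0.00809). The combination was higher than decitabine alone by 1.08 (adjusted p = 0.0155), and differed from valproic acid alone by -0.34, which was not called (adjusted p = 0.564). The receptors LGR4 and LGR6 had interactions of -0.14 and -0.22, neither called, and mean signals of 3.33 and 3.81.

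GLIPR1, a secretory-pathway protein of the CAP superfamily first found in glioma, rose with every treatment. Its signals on the log2 scale were 8.94, 8.83 and 9.36 with decitabine plus valproic acid, 9.54, 9.14 and 9.21 with decitabine, 9.81, 8.77 and 9.39 with valproic acid, and 7.74, 7.25 and 7.16 in control cells. The 3 treated groups overlapped each other and none overlapped the controls. The changes against control were 1.66 with both agents, 1.91 with decitabine and 1.94 with valproic acid, all called. The interaction was -2.19 (SE 0.31, 95% interval -2.86 to -1.53, adjusted p = 0.0112). It was -2.14 without replicate 1 of the combination (adjusted p = 0.0164) and lost its call without replicate 2 of the combination or when only the 12 arrays of the contrast were fitted. Estimates ran from -2.47 to -1.95 over all settings.

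VNN1 encodes vanin 1, a pantetheinase anchored in the plasma membrane that releases pantothenate and cysteamine. Its log2 signals were 7.32, 7.19 and 6.82 with decitabine plus valproic acid, 8.03, 7.88 and 7.88 with decitabine, 7.61, 7.49 and 7.72 with valproic acid, and 6.91, 7 and 7.25 in control cells. The combination arrays overlapped the controls and lay below every array of both single agents. VNN1 was higher by 0.87 with decitabine (adjusted p = 0.00405) and by 0.55 with valproic acid (adjusted p = 0.0449), whereas with both it differed from control by 0.05 (adjusted p = 0.882). Against decitabine alone, the combination fell by 0.82 (adjusted p = 0.00662), and against valproic acid alone it differed by -0.50 (adjusted p = 0.1). The interaction was -1.37 (SE 0.22, 95% interval -1.84 to -0.90, adjusted p = 0.0305). It remained called in 8 of 19 alternative settings, with estimates from -1.47 to -1.22. Leaving out any array except replicate 1 of the combination or replicate 3 of the controls ended the call.

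SP110 encodes a nuclear body protein with a bromodomain that interferon induces. Signals of SP110 on the log2 scale were 7.01, 7.03 and 7.13 with decitabine plus valproic acid, 7.07, 6.72 and 7.06 with decitabine, 7.59, 7.25 and 7.12 with valproic acid, and 5.70, 6.13 and 6.12 in control cells. The combination overlapped each single agent, and all treated arrays lay above the controls. The changes against control were 1.07 with both agents, 0.97 with decitabine and 1.34 with valproic acid, each called, and the interaction was -1.23 (SE 0.20, 95% interval -1.65 to -0.81, adjusted p = 0.0298). The call held in 11 of 19 alternative settings. It was lost without replicate 1 of the controls, replicate 1 or 3 of decitabine, replicate 2 of the combination, or replicate 1 or 2 of valproic acid. It was also lost with a replicate block (adjusted p = 0.0544) and when only the 12 arrays of the contrast were fitted (adjusted p = 0.0905).

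TPM4 and LPXN act at the actin cytoskeleton, TPM4 as a tropomyosin that coats actin filaments and LPXN, leupaxin, as an adaptor of the paxillin family in leukocytes. TPM4 had log2 signals of 10.28, 10.33 and 10.39 with decitabine plus valproic acid, 10.00, 9.99 and 9.97 with decitabine, 9.45, 9.41 and 9.55 with valproic acid, and 8.19, 8.21 and 8.17 in control cells. Its 4 groups did not overlap and stood in that order. Against control TPM4 rose by 2.14 with both agents, 1.79 with decitabine and 1.28 with valproic acid, and the interaction was -0.93 (SE 0.14, adjusted p = 0.0151). It was lost without replicate 2 of the combination or replicate 3 of valproic acid. LPXN had log2 signals of 9.55, 9.64 and 9.59 with decitabine plus valproic acid, 9.62, 9.52 and 9.49 with decitabine, 9.37, 9.26 and 9.24 with valproic acid, and 8.56, 8.49 and 8.23 in control cells. The combination and decitabine arrays overlapped, with a difference of 0.05 between their means (adjusted p = 0.855). The interaction of LPXN was -0.81 (SE 0.13, adjusted p = 0.032), the smallest of the 9 in size, and it was called in 7 of 19 alternative settings. Of the 12 settings that left out 1 array, only those without replicate 1 of the combination or replicate 1 of the controls kept it.

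ANXA2P2 is a pseudogene of annexin A2, a calcium-dependent membrane-binding protein, and probes for near-identical copies may not tell the gene and the pseudogene apart. Its log2 signals were 10.78, 11.15 and 11.15 with decitabine plus valproic acid, 10.77, 10.74 and 10.76 with decitabine, 10.37, 10.06 and 10.25 with valproic acid, and 8.82, 8.73 and 8.68 in control cells. Groups did not overlap, though replicate 1 of the combination lay only just above the decitabine arrays. The changes against control were 2.28 with both agents, 2.02 with decitabine and 1.49 with valproic acid, and the interaction was -1.22 (SE 0.16, adjusted p = 0.00749). The probe set named for ANXA2 itself was dim, with a mean of 4.66 and an interaction of 0.00 (SE 0.58).

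Across the 9 genes, the combination was called higher than control for 8, against 8.9% of all genes tested. Decitabine was called higher for 9, with 2.57% over all genes, and valproic acid for 7, with 4.73% over all genes. Against decitabine alone the combination was called higher for 4 (3.57% of all genes) and lower for 1 (2.57%), and against valproic acid alone it was called higher for 4 (2.63%). These comparisons share arrays with the interaction, so they describe the 9 genes and add no evidence. The sign of the departure did not depend on the log scale, since the same contrast of the linear signals had the same sign in all 9 genes. For HSPA2 the linear combination signal was 86.9 against 23.2 expected from the sum, and for GLIPR1 it was 534 against 1130. The size of the departure did depend on the scale. Linear signals were 1290 against 1430 for TPM4 and 2100 against 2510 for ANXA2P2. Set against added log2 changes, the same genes had 0.526 and 0.429 times the expected signal. The linear contrasts were not tested.

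The plot of the combination change against the summed single changes sets the 9 genes among all others. The median interaction over the 14884 genes was -0.01, with 52% of estimates below 0 and the central 98% between -0.87 and 0.87. The 95% interval lay wholly within -1 and 1, that is within 2-fold of additivity, for 12138 genes (81.6%). This share was 73.1% among the 9513 genes whose mean signal was above 3.84, the median of all values, and 96.4% among the 5371 dimmer genes, whose signals are compressed near the background. Of 184 estimates of at least 1 in size, 177 were not called. Without replicate 1 of the combination the median was -0.01, the central 98% lay between -0.92 and 0.96, and the interval was within -1 and 1 for 78.9% of genes.

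**Figure D2:**
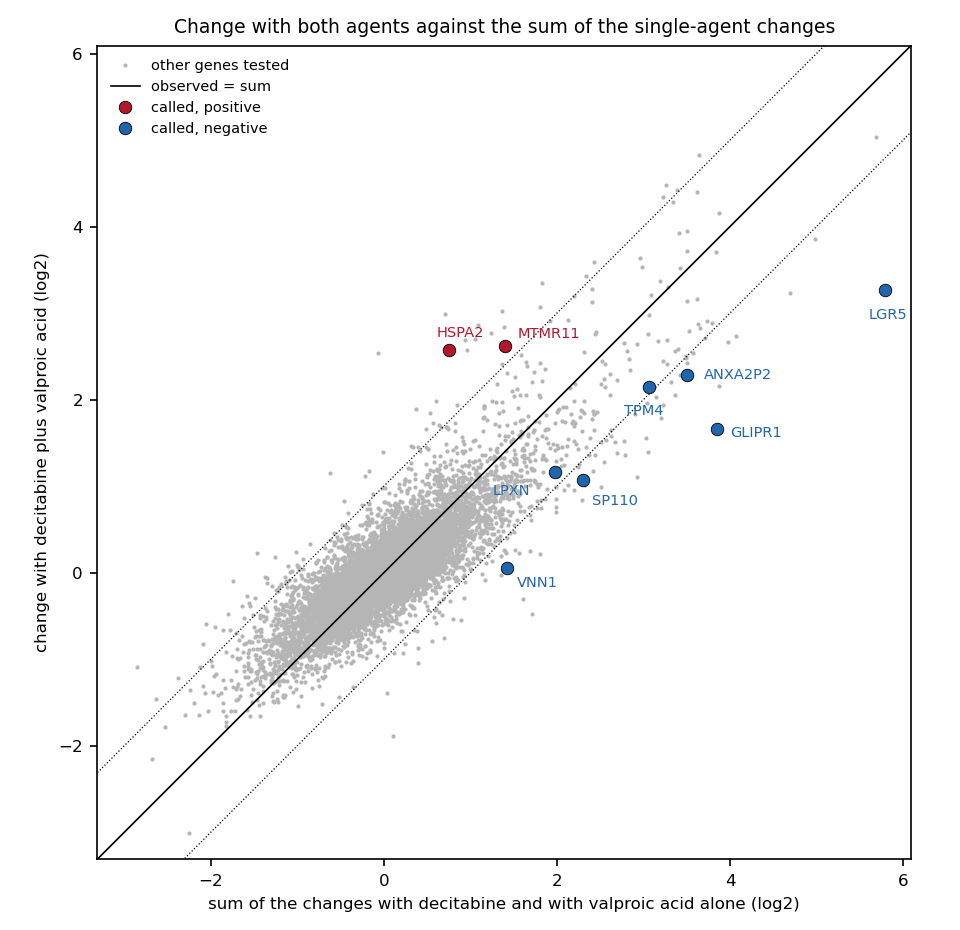
Each point is 1 of 14884 genes, with the sum of the log2 changes with decitabine and with valproic acid alone on the x axis and the log2 change with decitabine plus valproic acid on the y axis, all against control. The solid line marks equality and the dotted lines a departure of 1. HSPA2 and MTMR11 (red) lie above the upper dotted line. The 7 genes with a negative interaction (blue) lie below equality, TPM4 and LPXN of them within the dotted lines.

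Genes that both agents raised singly tended to fall short of the sum when the agents were combined. There were 130 genes called higher with each agent alone, with median changes of 1.21 with both agents, 0.92 with decitabine and 0.86 with valproic acid. Their median interaction was -0.62, and 126 of them had an estimate below 0. The 53 genes called lower with each agent had median changes of -0.89 with both agents, -0.61 with decitabine and -0.63 with valproic acid, and a median interaction of 0.45. Conversely, 117 genes were called higher with the combination than with control and with each agent, and their median interaction was 0.78. Without replicate 1 of the combination the same 3 sets had medians of -0.57, 0.40 and 0.88. All these sets were picked on arrays that enter the interaction, which by itself pulls the estimates in these directions, so the medians are descriptions only.

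Another choice of genes was made on other arrays, by what decitabine added to panobinostat. These are different sets from those above, so their medians do not show how far selection shaped the earlier ones. Decitabine plus panobinostat was called higher than panobinostat alone for 806 genes (5.42%) and lower for 615 (4.13%), on 6 arrays of a different deacetylase inhibitor that are not in the contrast. In the first set the median interaction of decitabine and valproic acid was 0.16, with 35.2% of estimates below 0. In the second it was -0.06, with 58.4% below 0. Over all genes the values were -0.01 and 52%. Without replicate 1 of the combination the medians were 0.21 for the first set, -0.08 for the second and -0.01 over all genes. This choice was made after the data had been seen.

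Of the 12 settings that left out 1 array, the one without replicate 1 of the combination called the most genes. Without it, 26 genes were called, 17 positive and 9 negative, and all 9 above were among them. The estimate was then -2.54 for LGR5, -1.47 for VNN1, -1.21 for SP110, -1.09 for ANXA2P2, -0.90 for TPM4 and -0.79 for LPXN. Without replicate 2 of the combination 3 genes were called, and without replicate 1 of valproic acid 5. The 17 gained genes comprised 15 with a positive interaction and 2 with a negative one, CD200R1 and HOMER2. Since these genes were chosen by leaving out replicate 1, its place below the other combination arrays in the 15, and above them in the 2, restates that choice. DHRS2, a mitochondrial and nuclear short-chain dehydrogenase known to respond to deacetylase inhibitors, had one of the widest gaps. Log2 signals of DHRS2 were 5.62, 7.57 and 8.22 with decitabine plus valproic acid, 4.43, 3.86 and 4.06 with decitabine, 5.77, 4.99 and 5.10 with valproic acid, and 3.61, 3.86 and 3.89 in control cells. The lowest combination array overlapped valproic acid alone, and the other 2 lay above every array of the other groups. The interaction was 1.52 (SE 0.61, adjusted p = 0.556) with all arrays and 2.28 (adjusted p = 0.00903) without replicate 1.

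STC1, stanniocalcin, a secreted glycoprotein that acts on calcium and phosphate handling, had the largest estimate of all genes, 2.61 (SE 0.70), and was not called (adjusted p = 0.257). Its log2 signals were 4.61, 6.44 and 7.66 with decitabine plus valproic acid, 3.80, 3.73 and 3.95 with decitabine, 3.38, 3.27 and 3.85 with valproic acid, and 3.30, 3.71 and 4.07 in control cells. All 3 combination arrays lay above every other array, but they spread over more than 3 units. Without replicate 1 the estimate was 3.42 (adjusted p = 0.00383). CXCL11, an interferon-inducible chemokine that attracts T cells, had 6.00, 6.73 and 7.04 with decitabine plus valproic acid, 5.00, 4.31 and 3.90 with decitabine, 3.65, 3.55 and 3.30 with valproic acid, and 3.38, 3.86 and 3.56 in control cells. Its combination arrays lay above all others, and the interaction was 2.29 (SE 0.44, adjusted p = 0.0671), or 2.58 without replicate 1 (adjusted p = 0.0216).

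The remaining gained genes with a positive interaction had a combination mean above those of both single agents. For PHC3 and ENDOV it was not called higher than in control cells. PHC3 had means of 8.09 with both agents, 7.74 with decitabine, 7.91 with valproic acid and 8.36 in control cells. ENDOV had 5.08, 4.15, 4.39 and 4.90 in that order. BCAS1, a protein of myelinating glia, had combination signals of 5.28, 6.86 and 7.30 and an interaction of 1.66 with all arrays and 2.26 without replicate 1 (adjusted p = 0.333 and 0.00573). LDHD, the mitochondrial D-lactate dehydrogenase, had combination signals of 5.87, 7.04 and 7.09 and an interaction of 1.54 with all arrays and 1.93 without replicate 1 (adjusted p = 0.0939 and 0.00107). NPPC, the C-type natriuretic peptide, ZNF280A, a zinc finger protein, and GPR4, a receptor that senses protons, had estimates of 1.62, 1.64 and 1.00 with all arrays, none called. Without replicate 1 these were 1.83, 1.97 and 1.17, each called. The valproic acid and control means of BCAS1, NPPC, ZNF280A and GPR4 lay below 3.84, the median of all values, where signals are compressed. Of the 15 genes, 13 were called higher with both agents than in control cells (8.9% of all genes) and 4 with decitabine alone (2.57%). The choice favours genes high with both agents, so these counts only describe them. What set replicate 1 apart in these genes was not tested.

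**Figure D3:**
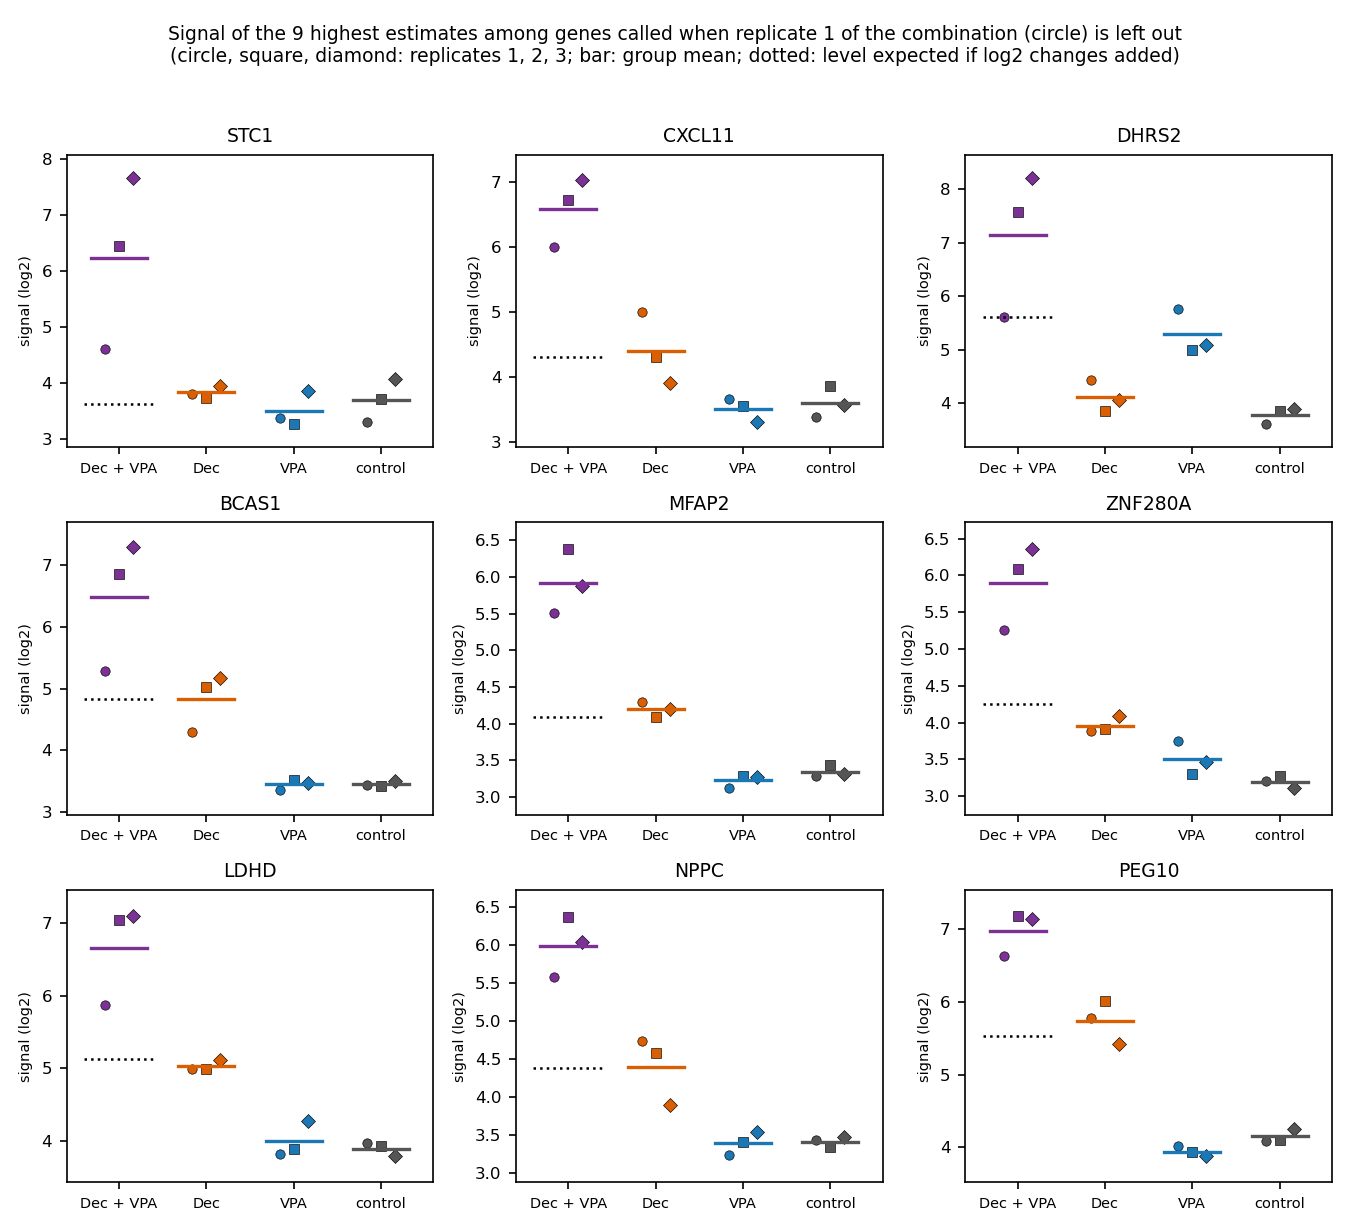
Log2 signal in each array (y axis) of the 9 genes with the highest estimates among those called when replicate 1 of the combination was left out, drawn as in the plot of the 9 called genes, for decitabine plus valproic acid, decitabine, valproic acid and control. In every panel the circle, replicate 1, is the lowest of the 3 combination arrays, which the choice of these genes fixes nearly by itself.

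Of the large negative estimates that were not called, 2 genes are described here that were chosen after their values were seen, and both were lower with the combination than with valproic acid alone. CAPN6, a calpain-like protein without protease activity, had log2 signals of 4.64, 5.65 and 5.66 with decitabine plus valproic acid, 4.68, 3.87 and 3.92 with decitabine, 7.50, 6.73 and 7.31 with valproic acid, and 4.68, 4.03 and 3.91 in control cells. The valproic acid arrays lay above all others, and the combination fell by 1.87 against them (adjusted p = 0.001). Its interaction was -1.82 (SE 0.41, adjusted p = 0.105), and -1.48 without replicate 1 of the combination (adjusted p = 0.143). ANKRD22, an ankyrin-repeat protein, had log2 signals of 6.34, 6.01 and 4.23 with decitabine plus valproic acid, 6.72, 6.65 and 6.34 with decitabine, 7.47, 7.29 and 6.68 with valproic acid, and 5.73, 5.86 and 6.41 in control cells. Its combination arrays spread over more than 2 units, with replicate 3 the lowest of all 12 arrays. The combination fell by 1.62 against valproic acid (adjusted p = 0.0257), and the interaction was -2.19 (SE 0.55, adjusted p = 0.187), and -2.60 without replicate 1 of the combination (adjusted p = 0.0596).

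The genes next to the threshold show how narrow the call was. Just inside it, by adjusted p, were VNN1 (0.0305), LPXN (0.032) and MTMR11 (0.0496). Just outside, all at an adjusted p that rounds to 0.05, were MFAP2, a microfibril protein of the extracellular matrix, PEG10, an imprinted gene derived from a retrotransposon, and RANBP2, a nucleoporin. MFAP2 had 5.51, 6.38 and 5.87 with decitabine plus valproic acid, 4.30, 4.09 and 4.20 with decitabine, 3.12, 3.28 and 3.27 with valproic acid, and 3.28, 3.43 and 3.32 in control cells. PEG10 had 6.63, 7.18 and 7.14 with decitabine plus valproic acid, 5.78, 6.01 and 5.42 with decitabine, 4.01, 3.94 and 3.88 with valproic acid, and 4.09, 4.10 and 4.25 in control cells. Both had combination arrays above all others, and estimates of 1.84 (SE 0.33) for MFAP2 and 1.45 (SE 0.26) for PEG10. The valproic acid and control means of MFAP2, 3.23 and 3.34, lay below 3.84, the median of all values, where signals are compressed. Without replicate 1 of the combination both were called, MFAP2 at 2.05 (adjusted p = 0.0164) and PEG10 at 1.63 (adjusted p = 0.0136), and are among the 15 genes above. RANBP2 had 10.18, 10.20 and 10.03 with decitabine plus valproic acid, 9.38, 9.64 and 9.32 with decitabine, 9.51, 9.41 and 9.23 with valproic acid, and 9.54, 9.69 and 9.64 in control cells, and an estimate of 0.93 (SE 0.17), or 0.91 without that array (adjusted p = 0.0643).

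Of the other genes of drug response and myeloid identity that were looked up by name, none had a called interaction with all arrays (0.0605% of all genes). DHRS2 alone gained one without replicate 1 of the combination. CD34, the surface glycoprotein of blood stem and progenitor cells, had 9.44, 9.67 and 8.97 with decitabine plus valproic acid, 9.22, 9 and 8.92 with decitabine, 6.06, 4.73 and 5.05 with valproic acid, and 4.49, 4.16 and 4.31 in control cells. The combination overlapped decitabine alone, and the interaction was -0.65 (SE 0.40, 95% interval -1.50 to 0.20, adjusted p = 0.771), or -0.69 without replicate 1 of the combination. CSF1R, the receptor for macrophage colony-stimulating factor, had 6.65, 6.88 and 5.96 with decitabine plus valproic acid, 7.17, 6.23 and 6.86 with decitabine, 5.68, 5.65 and 6.06 with valproic acid, and 4.66, 4.20 and 4.15 in control cells. All treated arrays of CSF1R lay above the controls, and the interaction was -1.72 (SE 0.42, 95% interval -2.61 to -0.82, adjusted p = 0.178), or -1.79 without that array (adjusted p = 0.159). TYROBP, a signalling adaptor of myeloid receptors, had an interaction of -0.49 (95% interval -0.99 to 0.02), and its combination mean of 10.51 stood beside 10.75 with decitabine, 8.09 with valproic acid and 7.83 in control cells.

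MYC, the transcription factor of growth and ribosome production, was lowered by 1.59 with both agents, 1.01 with decitabine and 1.03 with valproic acid. Its interaction was 0.44 (95% interval -0.21 to 1.10, adjusted p = 0.816), and 0.12 without replicate 1 of the combination, whose signal of 9.76 lay above the 9 and 8.60 of the other combination arrays. The chemokine CCL1 had an interaction of 0.28 (95% interval -0.31 to 0.88), and the cancer-testis antigen PRAME one of -0.29 (95% interval -0.97 to 0.40). For the deacetylases themselves, HDAC1 had an interaction of 0.31 (95% interval 0.01 to 0.62, adjusted p = 0.628) and HDAC11 one of -0.38 (95% interval -0.86 to 0.10, adjusted p = 0.76).

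Gene lists written from general knowledge of these agents and of blood cells, with earlier results of these data known, held few called genes. Of 34 lists, 33 had a measured member, and of their 600 measured genes 2 had a called interaction, against 0.0605% of all genes, too few to set against that share. They were HSPA2, on the list of classical deacetylase inhibitor response genes, and SP110, on the list of interferon-stimulated genes. List medians ran from -0.21 for 7 genes of MHC class I presentation to 0.25 for 23 genes of T and NK cells, beside -0.01 over all genes, and 449 list genes (74.8%) had a 95% interval within -1 and 1. Without replicate 1 of the combination, list medians ran from -0.24 to 0.21 and 4 list genes were called, CXCL11 and DHRS2 beside these 2, against 0.175% of all genes. List members named below other than these were picked after their values were seen.

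**Figure D4:**
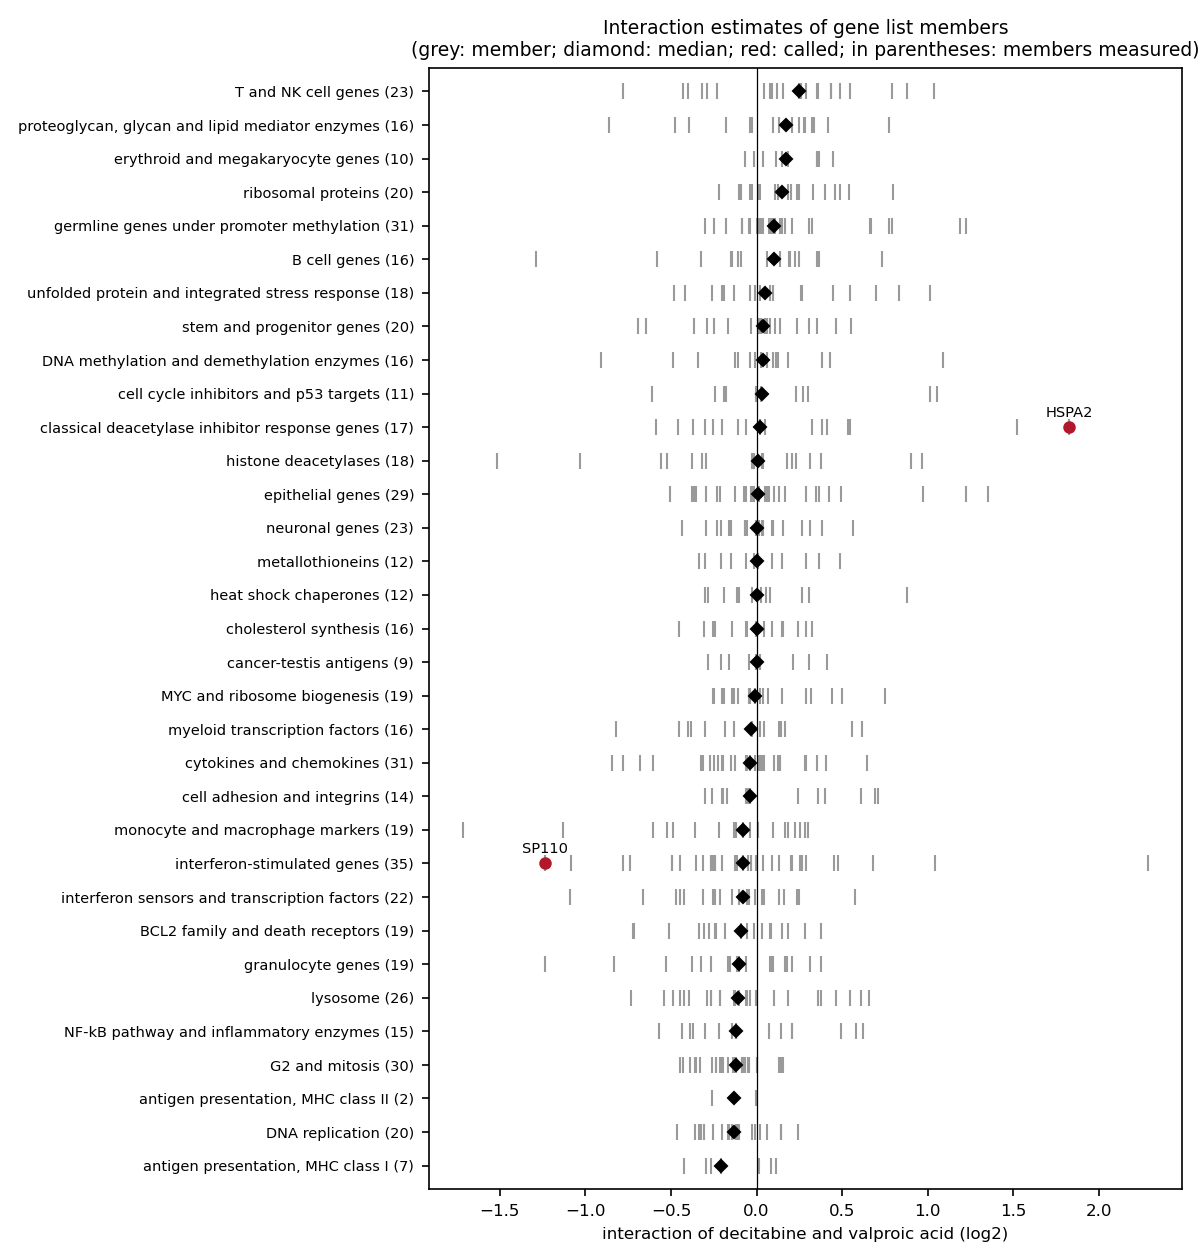
Interaction of decitabine and valproic acid (x axis, log2) for the measured members of 33 gene lists (rows, number measured in parentheses), with grey ticks for members, a diamond for the list median and red for called members. HSPA2 and SP110 are the only members drawn in red, and all medians lie between -0.21 and 0.25.

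Among 17 measured genes of the deacetylase inhibitor response, the median interaction was 0.02, and 9 were called higher with both agents than in control cells, against 8.9% of all genes. GSN, the actin-severing protein gelsolin, had the lowest estimate, -0.59. Of 35 interferon-stimulated genes, 22 had an estimate below 0 (52% over all genes), with a median of -0.08. Of the 35, 12 were called higher with both agents (8.9% of all genes). Estimates on this list spread from -1.23 for SP110 to 2.29 for CXCL11, and SAMD9L, an antiviral and growth-restraining factor, was at -1.08 (adjusted p = 0.136). The 22 interferon sensors and transcription factors had a median of -0.08, lowest at IRF1, -1.09 (adjusted p = 0.275).

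Some germline genes that promoter methylation silences rose with decitabine. None had a called departure from the sum, which at 0.0605% of all genes called says nothing particular about them. Of 31 measured, 10 were called higher with both agents (8.9% of all genes), 9 with decitabine (2.57%) and 0 with valproic acid (4.73%, a share at which few of 31 would be called). The median interaction was 0.10. MAEL, which guards germ cells against transposons, changed by 4.48 with both agents, 3.54 with decitabine and -0.28 with valproic acid, an interaction of 1.22 (adjusted p = 0.273). HORMAD1, a meiotic chromosome protein, changed by 3.30 with both agents, 3.48 with decitabine and -0.19 with valproic acid, an interaction of 0.02 (adjusted p = 0.995). The 9 measured cancer-testis antigens had a median interaction of 0.00, from -0.29 to 0.41.

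Genes of ribosome production were lower with both agents in large part, and none had a called interaction (0.0605% of all genes). Of 19 measured genes of MYC and ribosome biogenesis, 14 were called lower with both agents than in control cells, against 8.06% of all genes. Their median change was -1.04 with both agents, -0.22 with decitabine and -0.68 with valproic acid, and their median interaction was -0.01. Without replicate 1 of the combination 15 were called lower, against 7.88% of all genes, and the median interaction was -0.13. Of 20 ribosomal proteins, 9 were called lower with both agents, and the median interaction was 0.15, or 0.05 without that array. Of 20 genes of DNA replication, 6 were called lower with both agents and 0 higher, against 8.06% and 8.9% of all genes. Their median interaction was -0.13, or -0.23 without replicate 1 of the combination, and 15 estimates were below 0. Of 30 genes of mitosis, 1 was called lower and 1 higher, with a median change of 0.08 with both agents. Their median interaction was -0.12, and 25 estimates were below 0. Over all genes 52% of estimates were below 0, and the lists were not tested as sets. Monocyte and macrophage markers (19 genes) had a median of -0.08 and granulocyte genes (19 genes) one of -0.10, with none called. The 18 histone deacetylases spanned -1.52 for HDAC9 to 0.97 for HDAC4, and the 16 enzymes of DNA methylation and demethylation -0.91 for DNMT3A to 1.09 for TET1, with none called. At the share of calls over all genes, the lack of calls in lists of this size says nothing particular about them.

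Close relatives of the 9 genes, chosen after the calls were known, comprised 47 measured genes. None had a called interaction, which at 0.0605% of all genes called says nothing particular about them. The 10 measured HSP70 genes other than HSPA2 lay between -0.18 and 0.27, the 11 myotubularins other than MTMR11 between -0.62 and 0.28, and 10 genes that comprise annexins and their partner S100A10 between -0.74 and 0.20. ANXA1, annexin A1, had the lowest of these, -0.74 (SE 0.24, adjusted p = 0.368), and was called higher with both agents against control, at 1.36. R-spondins, the ligands of LGR5, lay between -0.14 and 0.27 in 4 measured genes. The relatives of SP110 were SP100 at -0.06, SP140L at -0.25 and SP140 at -0.66 (adjusted p = 0.447).

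Panobinostat, a hydroxamate inhibitor of histone deacetylases, was given alone and with decitabine on the 6 remaining arrays, under a label number of 8 that also has no unit, so the doses of the inhibitors cannot be called matched. Its interaction with decitabine was called for 93 genes (0.625%). Both interactions use the same decitabine and control arrays, so their values are only set side by side. The interaction of HSPA2 was 1.82 with valproic acid and 2.22 with panobinostat. For LGR5 it was -2.53 with valproic acid and -2.37 with panobinostat, and for GLIPR1 -2.19 with valproic acid and -2.08 with panobinostat. These 3 genes, which had the largest called estimates in size with valproic acid, were called with both inhibitors. VNN1 had -1.37 with valproic acid and -1.43 with panobinostat, and ANXA2P2 had -1.22 with valproic acid and -1.15 with panobinostat. TPM4 had -0.93 with valproic acid and -1.01 with panobinostat, and LPXN had -0.81 with valproic acid and -0.89 with panobinostat. All 4 were called with both inhibitors too. MTMR11 had 1.22 with valproic acid and 0.95 with panobinostat, the second not called (adjusted p = 0.0592). SP110 had -1.23 with valproic acid and -0.36 with panobinostat, the second not called (adjusted p = 0.582).

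The difference between the interactions, in which the decitabine and control arrays cancel, was called for 0 of 14884 genes in limma (0%), with 995 at an unadjusted p under 0.05. For SP110 the difference was -0.88 (SE 0.20, 95% interval -1.30 to -0.46, adjusted p = 0.401). For HSPA2 it was -0.39 (95% interval -0.84 to 0.05) and for MTMR11 0.28 (95% interval -0.17 to 0.73). For LGR5 the interval ran from -0.88 to 0.57 and for GLIPR1 from -0.78 to 0.55, and for TPM4 and LPXN from -0.21 to 0.37 in both. A p above the threshold does not show that the inhibitors acted alike. Leaving out replicate 2 of the combination with valproic acid, or replicate 2 of the combination with panobinostat, gave 4 calls in this difference.

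**Figure D5:**
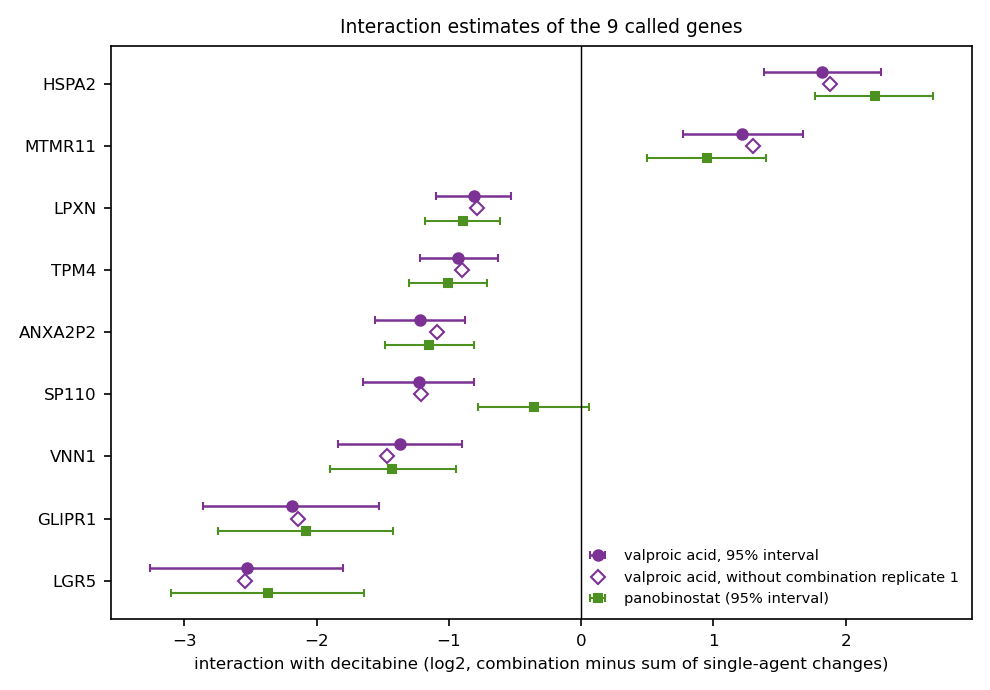
Interaction with decitabine (x axis, log2) of the 9 called genes (rows), with filled circles and 95% intervals for valproic acid, open diamonds for valproic acid without replicate 1 of the combination, and squares and 95% intervals for panobinostat. The intervals of both inhibitors overlap for HSPA2, MTMR11, LPXN, TPM4, ANXA2P2, VNN1, GLIPR1 and LGR5. The SP110 interval for panobinostat, -0.78 to 0.06, lies above that for valproic acid, -1.65 to -0.81.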

How the data were processed

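RNA of U937 cells was hybridised to Affymetrix arrays (Human Gene 2.0 ST). The authors deposited log2 signals made with RMA, per the submitters' processing notes; its version is not given in the sources used here, and raw arrays were not used here. RMA normalizes all arrays to 1 distribution, so a change shared by most genes would not be seen. Probe sets were named with the platform's annotation (16098 of 48226 had 1 symbol, 0 several and 32128 none), symbols were updated by gene identifier through the RefSeq gene table (GRCh38.p14), and the probe set with the highest mean stood for genes with several (779 genes). No gene was removed for low signal.

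limma 3.58.1 in R 4.3.3 fitted 1 mean for each of 6 groups to 18 arrays, with 12 residual degrees of freedom and empirical Bayes moderation. The interaction, 5 comparisons of pairs of its groups, and the difference between the valproic acid and panobinostat interactions were tested two-sided, with Benjamini-Hochberg adjustment over 14884 genes. No label gives a batch or scan date. The code was tested on simulated data. Alternatives changed the arrays fitted, the prior, array weights, a replicate block, the filter, the probe sets, the centring, or left out 1 array.

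Named genes are the called protein-coding genes (up to 15 per direction), up to 3 called members per list, 10 measured genes of drug response and myeloid identity, the 3 nearest either side of the threshold and up to 5 called in the difference between interactions. Others, including ANXA2P2, STC1 and CXCL11, were named after their values were seen. The contrast, the members and the lists were chosen with earlier results of these data known.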

Additional observations from a re-analysis of the deposited data

Results flagged for a closer look

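The effect of 1 agent pointed in opposite directions in the presence and absence of the other, with no overlap between arrays as deposited, for 3 of the called genes. LGR5 (interaction -2.53) rose by 2.19 with decitabine in the absence of valproic acid, and all 3 combination arrays lay below those of valproic acid alone, with a mean difference of -0.34 that was not called by itself. VNN1 (interaction -1.37) had this for both agents: each raised it alone, and the combination lay below decitabine alone by a called difference of -0.82 and below valproic acid alone by one of -0.50 that was not called. MTMR11 (interaction 1.22) was 0.98 higher when valproic acid was added to decitabine, and differed by -0.24 with valproic acid alone, which was not called. Its highest valproic acid array and its lowest control were both 3.85 at 2 decimals, so this opposite direction rests on a gap smaller than that. In each of the 3 genes the test of the difference is the interaction itself, which does not test whether the direction reversed.

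Probe sets with no gene symbol were outside the tests of genes. Of 32128 such probe sets, 20 had a called interaction (0.0623%), 10 positive and 10 negative, with estimates from -2.05 to 2.36.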

How the results depend on the processing

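The count of 9 called genes was 3 when only the 12 arrays of the contrast were fitted, 16 with a trended and robust prior and 30 with array weights. Leaving out 1 array gave 3 to 26, with 26 without replicate 1 of the combination, 3 without replicate 2 of the combination and 5 without replicate 1 of valproic acid. For positive interactions (2) these settings gave 7 with the prior and 18 with weights, the filter on dim genes gave 4, averaging probe sets 5 and single probe sets 1, and leaving out an array 1 to 17. For negative interactions (7) they gave 1 with 12 arrays and 12 with weights, and leaving out an array 2 to 9. The difference between interactions had 0 to 4 calls on leaving out an array, and 0 in the other settings. Leaving out an array gave 361 to 468 calls for decitabine (590 with all), 508 to 1001 for valproic acid (1112), 360 to 1227 for the combination against decitabine (913) and 371 to 565 against valproic acid (600). Same-numbered arrays had deviations that correlated at -0.108 to 0.104 in 18 pairs, 1 of them over 0.1, so the numbers were not taken as pairs; with a replicate block 9 genes were called, 7 of them shared, and MTMR11 (adjusted p = 0.0677) and SP110 (0.0544) were lost. Among named genes, 482 of the values kept direction and side of the threshold. These include the linear signals of the 9 called genes, which were compared by direction alone. The call was lost in 51 values and gained in 26. PRAME reversed to 0.06 without replicate 3 of the controls (range -0.47 to 0.06 on leaving out an array). The causes were not tested. HSPA2 alone kept its call in all 19 settings, with ANXA2P2 and LGR5 lost only with the 12 arrays alone. Having 3 arrays a group limits the precision, with a median SE of 0.22.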
